A study of Homo sapiens with 6 samples.

Results

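The ligands and receptors of the tumour necrosis factor (TNF) superfamily were examined in PC3 cells sorted by their level of NRP2. Members were the protein coding rows of the deposited table whose symbol starts with TNFSF or TNFRSF, together with fixed older symbols such as TNF, LTA, FAS and CD40. This rule reads symbols and no measured value, though it was set with earlier results of these data known. This gave 36 of the 27958 genes of the table, 15 ligands and 21 receptors. PC3 is an androgen-independent human cell line from a bone metastasis of prostate cancer. The sorted protein NRP2, neuropilin-2, is a membrane protein that binds growth factors of the VEGF family and semaphorins. Both groups are PC3 cells separated by flow cytometry after antibody staining, and the labels name no genetic change or drug in either. After sorting the cells were kept in culture, and RNA came from more than one passage. There were 3 NRP2-high libraries (called S38, S39 and S40 after the numbers in the column names) and 3 of NRP2-low cells (S35, S36 and S37). No label says that the libraries of a group were sorted or cultured separately, so the p-values reflect variation between these samples that may be only technical.

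The ligands of the superfamily are mostly trimeric membrane proteins that can be cut from the cell surface, and the receptors bind them through cysteine-rich repeats. Some receptors, such as FAS, TNFRSF1A and the signalling TRAIL receptors, carry a death domain through which caspase-8 can be activated. Others bind TRAF adaptors directly and switch on the NF-kB transcription factors, and decoy receptors such as TNFRSF10D and the secreted TNFRSF11B bind a ligand without passing on the full signal. TNF is itself a classical target gene of NF-kB.

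TNF and LTA (lymphotoxin alpha) are neighbours in the major histocompatibility complex, in the same orientation on the plus strand (GRCh38, chromosome 6, 31575567 to 31578336 for TNF and 31572054 to 31574324 for LTA). TNFSF9 (chromosome 19, 6530999 to 6535928) is shown with them because it is the tested ligand gene with the most positive difference between the groups. The 250 bases before the RefSeq start of each are given from 5′ to 3′ (GRCh38.p14, plus strand), at chr6:31575315-31575564 for TNF, chr6:31571849-31572098 for LTA and chr19:6530776-6531025 for TNFSF9. Capitals mark matches on either strand to the relaxed kB pattern GGGNNNNNCC and to TATAAA.
TNF: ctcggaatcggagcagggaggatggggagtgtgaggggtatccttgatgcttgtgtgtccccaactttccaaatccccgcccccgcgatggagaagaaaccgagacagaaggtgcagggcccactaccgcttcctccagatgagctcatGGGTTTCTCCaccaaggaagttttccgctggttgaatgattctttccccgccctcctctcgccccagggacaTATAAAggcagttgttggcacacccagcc
LTA: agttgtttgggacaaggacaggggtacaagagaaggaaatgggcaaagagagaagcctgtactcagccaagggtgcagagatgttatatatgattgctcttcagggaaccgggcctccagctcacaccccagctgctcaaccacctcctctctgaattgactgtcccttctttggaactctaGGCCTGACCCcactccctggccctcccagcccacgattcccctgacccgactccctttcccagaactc
TNFSF9: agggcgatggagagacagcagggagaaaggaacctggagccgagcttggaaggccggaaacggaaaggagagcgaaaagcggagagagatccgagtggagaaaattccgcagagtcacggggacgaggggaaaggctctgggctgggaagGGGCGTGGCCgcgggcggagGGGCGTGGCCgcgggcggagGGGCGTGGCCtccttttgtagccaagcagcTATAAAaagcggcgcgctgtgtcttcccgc
The TNF window holds 1 match to the relaxed pattern, GGGTTTCTCC, which begins 101 bases before the start, and TATAAA 29 bases before it. The LTA window, taken at the RefSeq start nearest to the gene's start in the table, holds 1 match on the opposite strand and no TATAAA. The window of the other RefSeq start of LTA, not printed, does hold TATAAA on either strand. The TNFSF9 window holds 3 copies of GGGCGTGGCC and TATAAA 30 bases before the start. The relaxed pattern is common, since 54.4% of all 35116 promoter windows of this length hold it on either strand, whereas TATAAA was found in 10.7%. The stricter published NF-kB consensus was found in 5.21% of windows and in none of the 3 printed here. It was found in a window of 6 of the 22 members that have an entry, LTA among them at its other start. Some members have more than 1 start, so this count of members cannot be set against the share of windows. These matches are letters only and say nothing about binding.

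The reads assigned to the genes of the table, recovered from the deposited values, numbered 17551302 to 30726744 per library. Mitochondrially encoded genes took 31.0% of the summed TPM (transcripts scaled by gene length to the same total per library) in S37, against 11.1% to 18.7% in the other 5 libraries, which lowers every other TPM value of S37. The sorted gene NRP2 was at 35.7 ± 16.8 TPM in NRP2-high cells and 5.12 ± 2.42 TPM in NRP2-low cells (SD, n = 3 each). Keratin genes KRT8 and KRT18 were between 62.9 and 585 TPM in every library, while the epithelial marker EPCAM was at 0 in 5 of 6 libraries. The 8 markers of blood, endothelial and stromal cells found in the table summed to 0.464 to 0.898 TPM in NRP2-high and 0.828 to 1.54 TPM in NRP2-low cells, with CD14 at 0 to 0.690 TPM in NRP2-high cells and 0.475 to 1.52 TPM in NRP2-low cells and PTPRC at 0.0397 TPM or less. These are bulk samples, so fewer cells expressing a gene and less of its RNA per cell cannot be told apart.

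Of the 36 members, 20 reached the filter of at least 1 TPM in at least 3 libraries and were tested, 5 ligands and 15 receptors. Receptors dominated: 9 receptors but 3 ligands averaged at least 10 TPM over the 6 libraries. Among the tested members 2 fell in NRP2-high cells, TNF and TNFRSF11B, and 0 rose, by limma with adjustment over all 15214 tested genes. Of all tested genes, 0.486% fell and 0.348% rose, 0.835% in both directions. TNF reached 1 TPM in the NRP2-low libraries alone, and TNFRSF11B in these and in 1 NRP2-high library, so TNF had to differ between the groups to be tested. The groups did not overlap for 3 of the 20 (TNF, TNFRSF11B and TNFSF18), against 12.0% of all tested genes. The members' median log2 fold change was 0.12 and that of all tested genes 0.10, which moved to -0.01 when TPM was scaled by the median log ratio.

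**Figure D1:**
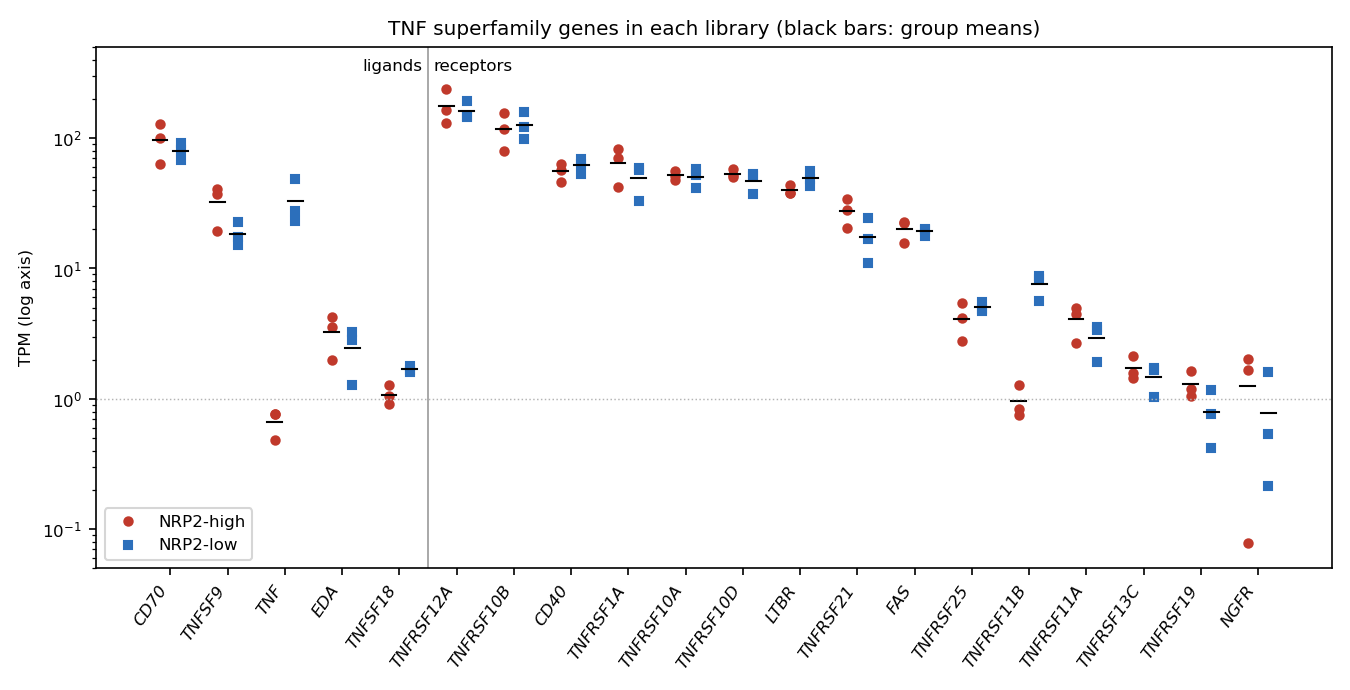
TPM (log axis) of the 20 tested members in each library, ligands left and receptors right, with NRP2-high libraries as red circles, NRP2-low libraries as blue squares and group means as black bars. The groups lie apart for TNF (0.485 to 0.764 against 23.0 to 48.6 TPM), TNFRSF11B and TNFSF18, and overlap for the other genes.

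TNF encodes the founding cytokine of the family, an activator of NF-kB and of inflammation. TNF was at 0.764, 0.760 and 0.485 TPM in the NRP2-high libraries (S38, S39, S40 in this order), against 48.6, 23.0 and 27.4 TPM in the NRP2-low libraries (S35, S36, S37 in this order), an order kept in all later lists of values. Every NRP2-high library was far below every NRP2-low library. These values rest on 7, 7 and 5 reads in NRP2-high cells and on 637, 225 and 256 reads in NRP2-low cells. The mean was 0.670 ± 0.160 TPM in NRP2-high cells and 33.0 ± 13.7 TPM in NRP2-low cells (SD, n = 3 each), which makes the mean TPM 49.3-fold lower in NRP2-high cells. On the log2(TPM + 1) scale, where the change of such a low gene is understated, the log2 fold change came to -4.28 (SE 0.29 with a 95% interval -4.93 to -3.62, limma adjusted p = 0.000257). It was -5.37 with a pseudocount of 0.1 and -5.60 by voom on the reads. With any library left out it stayed between -4.50 and -3.97, with a limma adjusted p of at most 0.00620. Those fits kept the tested genes fixed, so they share the filter that TNF passed through NRP2-low cells alone. In the fit with no filter it was -4.28 with a limma adjusted p of 0.0114, where 0.265% of all genes passed.

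LTA, the neighbour of TNF, encodes a secreted cytokine that can bind the TNF receptors. LTA was at 0.211, 0.105 and 0.281 TPM in NRP2-high cells, against 0.0736, 0 and 0 TPM in NRP2-low cells, which is 6 reads against 1 read. It was below the filter. In reads the groups shared a value, with 1 read in S39 and 1 read in S35. In TPM they did not overlap, as for 10.4% of all 27958 genes without a filter. In that fit its log2 fold change was 0.22 (95% interval 0.04 to 0.41, unadjusted p = 0.0234, limma adjusted p = 0.617), so it did not pass the threshold.

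CD70, the ligand of the lymphocyte receptor CD27, was the most abundant ligand gene. CD70 was at 63.2, 99.4 and 127 TPM in NRP2-high cells, against 81.2, 91.8 and 67.4 TPM in NRP2-low cells. The groups overlapped, with the highest and the lowest value both in NRP2-high cells, and the log2 fold change came to 0.22 (SE 0.26, 95% interval -0.37 to 0.81, limma adjusted p = 0.903). CD70 is on chromosome 19 between TNFSF9 and TNFSF14, and these 3 ligand genes lay at very different levels.

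TNFSF9 encodes 4-1BB ligand, a costimulator of T cells. TNFSF9 was at 19.2, 40.7 and 37.2 TPM in NRP2-high cells, against 22.8, 17.4 and 15.2 TPM in NRP2-low cells. S39 and S40 were above every NRP2-low library, but S38 was below S35. The mean was 32.4 ± 11.5 TPM in NRP2-high cells and 18.5 ± 3.93 TPM in NRP2-low cells (SD, n = 3 each), with a log2 fold change of 0.73 (SE 0.29, 95% interval 0.06 to 1.40, unadjusted p = 0.0358, limma adjusted p = 0.633). The difference did not pass the threshold, also not without S38, where it was 1.06 (adjusted p = 0.178). The 95% interval included 0 after median log ratio scaling (0.61, -0.06 to 1.28) and without mitochondrial genes (0.65, -0.04 to 1.33). It also did by voom (0.64, -0.07 to 1.35), with no filter and without S36, S37, S39 or S40. The interval excluded 0 with a pseudocount of 0.1, without a trend and without S35 or S38. TNFSF14, which encodes LIGHT, a ligand of TNFRSF14 and LTBR, had 1 read in NRP2-high cells and 12 reads in NRP2-low cells, at 0.150 TPM or less in each. It is named because of its values. TNFSF14 did not overlap between the groups, as for 10.4% of all genes without a filter, and its limma adjusted p in that fit was 0.573.

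EDA, ectodysplasin A, which directs the formation of hair, teeth and sweat glands, was at 3.27 ± 1.15 TPM in NRP2-high cells and 2.44 ± 1.03 TPM in NRP2-low cells (SD, n = 3 each), with a log2 fold change of 0.32 (SE 0.33). TNFSF18, which encodes the ligand of GITR, a costimulatory receptor on T cells, was at 1.28, 0.906 and 1.05 TPM in NRP2-high cells, against 1.66, 1.62 and 1.79 TPM in NRP2-low cells. All NRP2-high libraries were lower for TNFSF18, but it rests on 10 to 26 reads per library, and its log2 fold change of -0.37 (SE 0.24) had a limma adjusted p of 0.873. The 15 ligands together summed to 135 ± 40.6 TPM in NRP2-high cells and 136 ± 22.3 TPM in NRP2-low cells. CD70 made up 71.2% ± 3.69 of that sum in NRP2-high cells and 59.2% ± 7.80 in NRP2-low cells (SD, n = 3 each). TNFSF9 made up 23.7% ± 3.60 in NRP2-high cells and 13.5% ± 0.879 in NRP2-low cells. TNF made up 0.552% ± 0.282 in NRP2-high cells and 23.9% ± 6.98 in NRP2-low cells. The sums differed by less than their spread between libraries, while the TNF share of every NRP2-high library was below that of every NRP2-low library. Shares of the same sum depend on each other, so a lower TNF share alone raises those of CD70 and TNFSF9. These sums and shares are descriptions without a test.

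**Figure D2:**
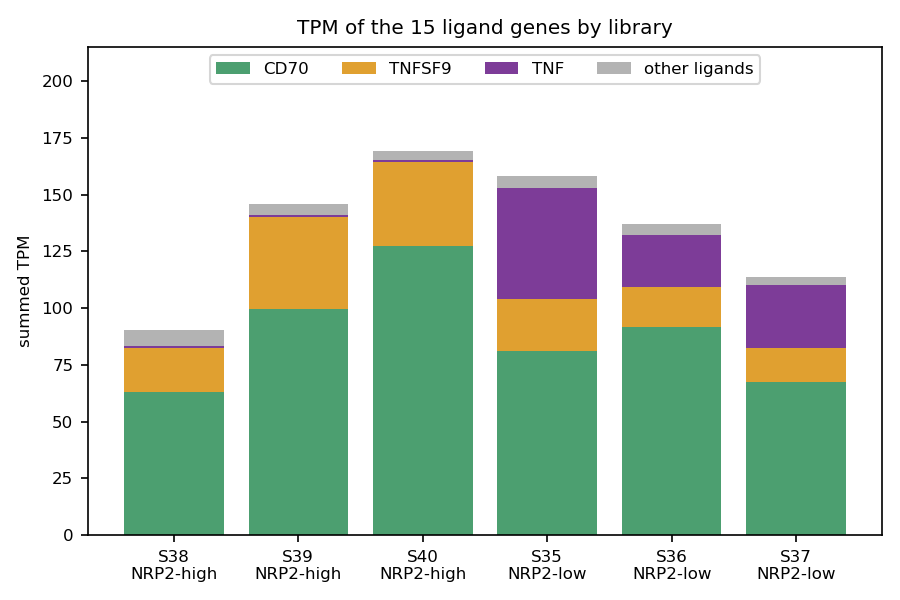
Summed TPM of the 15 ligand genes in each library, NRP2-high left and NRP2-low right, stacked by gene. TNF takes 0.287% to 0.847% of the sum in NRP2-high libraries and 16.8% to 30.7% in NRP2-low libraries, while CD70 is the largest part in all 6.

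Of the ligand genes, 10 were below the filter, and those for several expressed receptors had almost no reads. TNFSF10 encodes TRAIL, the ligand of the abundant TRAIL receptors, and had 8 reads in NRP2-high cells and 3 reads in NRP2-low cells. FASLG, the ligand of FAS, was at 0.678, 0 and 0.0862 TPM in NRP2-high cells, against 0, 0 and 0.285 TPM in NRP2-low cells, or 8 reads against 3 in NRP2-low cells. TNFSF11 encodes RANK ligand and had 0 reads in NRP2-high cells and 1 read in NRP2-low cells. None of these 3 passed by limma in the fit without a filter, and 0 had an unadjusted p under 0.05, against 6.5% of all genes there. Members under 0.5 TPM in every library, 13 in all, rest on 1 to 21 reads over the 6 libraries. LTB, CD40LG, CD27, EDAR and EDA2R were not among the rows that matched the rule and were not analysed here. The same holds for other genes of the family, such as TNFSF12 and TNFRSF1B.

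TNFRSF11B encodes osteoprotegerin, a secreted decoy receptor that binds RANK ligand and TRAIL. TNFRSF11B (chromosome 8, 118923557 to 118952200, minus strand) stood at 0.841, 1.29 and 0.748 TPM in NRP2-high cells, against 5.61, 8.73 and 8.37 TPM in NRP2-low cells. The groups were well apart, with 46 reads in NRP2-high cells and 400 reads in NRP2-low cells. The mean TPM was 7.89-fold lower in NRP2-high cells (0.959 ± 0.288 TPM, against 7.57 ± 1.71 TPM in NRP2-low cells, SD, n = 3 each), with a log2 fold change of -2.12 (SE 0.25, 95% interval -2.69 to -1.55, limma adjusted p = 0.00745). The call ended without S36 (log2 fold change -2.02, adjusted p = 0.0615) and with no filter on low values (adjusted p = 0.0536), where 0.265% of all genes passed. It stayed with each of the other 5 libraries left out. By voom on the reads, which called 1.31% of all tested genes, the log2 fold change was -3.02 (adjusted p = 0.00512).

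TNFRSF11A encodes RANK, the signalling receptor for RANK ligand. TNFRSF11A was at 4.51, 5.02 and 2.68 TPM in NRP2-high cells, against 3.54, 3.35 and 1.91 TPM in NRP2-low cells, with overlapping groups. Its log2 fold change of 0.36 (SE 0.29, 95% interval -0.29 to 1.01) did not pass the threshold, with a limma adjusted p of 0.892. Whether the difference of the decoy exceeds that of the receptor was not tested.

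**Figure D3:**
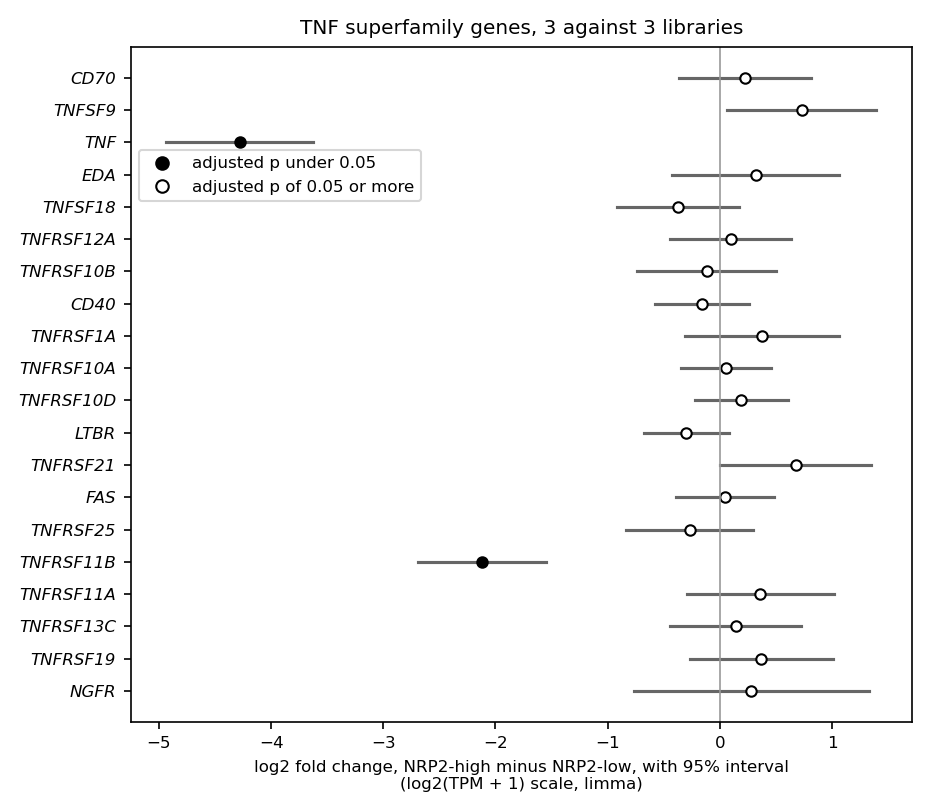
Log2 fold change (NRP2-high minus NRP2-low, log2(TPM + 1) scale) of the 20 tested members with its 95% interval from limma, ligands above receptors, with filled points where the adjusted p is under 0.05. TNF at -4.28 and TNFRSF11B at -2.12 lie far left of the other 18, whose values run from -0.37 to 0.73.

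The 2 tested receptors of TNF and the lymphotoxins did not pass the threshold. TNFRSF1A, the death domain receptor for TNF found on most cell types, was at 81.9, 70.2 and 42.2 TPM in NRP2-high cells, against 58.6, 57.4 and 32.9 TPM in NRP2-low cells. The groups overlapped through S40, and the log2 fold change came to 0.37 (SE 0.30, 95% interval -0.32 to 1.06, limma adjusted p = 0.895). LTBR, the lymphotoxin beta receptor, lies beside TNFRSF1A on chromosome 12 and was at 37.7, 37.7 and 43.9 TPM in NRP2-high cells, against 48.7, 56.0 and 43.3 TPM in NRP2-low cells. S40 was just above S37, and the log2 fold change came to -0.30 (SE 0.17, 95% interval -0.68 to 0.08, adjusted p = 0.859). It was -0.42 (95% interval -0.72 to -0.12) after median log ratio scaling. Without mitochondrial genes it was -0.39 (-0.71 to -0.07), and by voom -0.41 (-0.73 to -0.09). The limma adjusted p of these fits was 0.338, 0.458 and 0.4, so LTBR did not pass in them either. The interval also excluded 0 without S37 and included it in the other alternatives. LTBR shares 422 exon bases with SCNN1A on the other strand, and whether the counting used strand is not given in the sources used here.

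The TRAIL receptors lie in a cluster on chromosome 8 and together made up 35.8% ± 4.73 of the summed receptor TPM in NRP2-high cells and 36.8% ± 4.33 in NRP2-low cells (SD, n = 3 each). TNFRSF10B, the death receptor DR5, was at 157, 117 and 79.9 TPM in NRP2-high cells, against 157, 123 and 97.6 TPM in NRP2-low cells. TNFRSF10A, the death receptor DR4, averaged 51.8 ± 4.14 TPM in NRP2-high cells and 50.3 ± 8.36 TPM in NRP2-low cells. The decoy TNFRSF10D averaged 53.4 ± 4.04 TPM in NRP2-high cells and 47.1 ± 8.51 TPM in NRP2-low cells (SD, n = 3 each). All 3 overlapped between the groups, with log2 fold changes of -0.12, 0.05 and 0.19, and each 95% interval included 0 (limma adjusted p = 0.947, 0.969 and 0.895). TNFRSF10C, a decoy anchored in the membrane by a lipid, was below the filter with 7 reads in NRP2-high cells against 8 in NRP2-low cells. It shares 485 exon bases with AC107959.4 on the same strand, so its reads may have been counted incompletely. These receptor genes are related copies, and their reads may have been split unevenly among them, and TNFRSF10A also overlaps its antisense gene TNFRSF10A-AS1 over 224 exon bases.

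Other death domain receptors were also measured. FAS was at 15.7, 22.3 and 22.6 TPM in NRP2-high cells, against 17.8, 19.9 and 20.2 TPM in NRP2-low cells, and its log2 fold change of 0.05 (SE 0.19, 95% interval -0.39 to 0.49) was within the spread. FAS shares 380 exon bases with ACTA2 on the other strand. TNFRSF21, the death receptor DR6, was at 33.9, 28.0 and 20.5 TPM in NRP2-high cells, against 24.3, 16.7 and 11.0 TPM in NRP2-low cells. S38 and S39 were above every NRP2-low library and S40 was between S35 and S36. The log2 fold change of TNFRSF21 was 0.67 (SE 0.30, unadjusted p = 0.0501, limma adjusted p = 0.715), and it was 0.40 without S37 and 0.94 without S35. The 95% interval lay above no difference without S35 (0.29 to 1.59) and without S40 (0.12 to 1.60). It also did without mitochondrial genes (0.04 to 1.15) and by voom (0.02 to 1.12). The limma adjusted p of these fits was 0.406, 0.414, 0.545 and 0.5675, so TNFRSF21 did not pass in them. In the main fit and the other alternatives the interval included no difference. TNFRSF25, the death receptor DR3, was at 4.12 ± 1.33 TPM in NRP2-high cells and 5.03 ± 0.437 TPM in NRP2-low cells (SD, n = 3 each), and it shares 104 exon bases with PLEKHG5 on the same strand. NGFR, the p75 neurotrophin receptor, was at 1.67, 2.02 and 0.0784 TPM in NRP2-high cells, against 1.60, 0.537 and 0.216 TPM in NRP2-low cells. NGFR varied more within the groups than between them (log2 fold change 0.28, SE 0.46), and the value of TNFRSF25 was -0.27 (SE 0.25).

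The receptors without a death domain included the most abundant member. TNFRSF12A, the receptor FN14 for the cytokine TWEAK, was at 165, 130 and 238 TPM in NRP2-high cells, against 148, 146 and 194 TPM in NRP2-low cells, with a log2 fold change of 0.10 (SE 0.24, 95% interval -0.45 to 0.64). CD40, a receptor best known from antigen-presenting cells, was at 57.0, 63.4 and 46.5 TPM in NRP2-high cells, against 63.8, 69.5 and 53.1 TPM in NRP2-low cells, with a log2 fold change of -0.16 (SE 0.18). Neither passed the threshold (limma adjusted p = 0.952 and 0.902). TNFRSF13C, the BAFF receptor of B cells, averaged 1.72 ± 0.376 TPM in NRP2-high cells and 1.47 ± 0.378 TPM in NRP2-low cells, with a log2 fold change of 0.14 (SE 0.26). TNFRSF19 (TROY) averaged 1.29 ± 0.308 TPM in NRP2-high cells and 0.789 ± 0.378 TPM in NRP2-low cells (SD, n = 3 each), with a log2 fold change of 0.37 (SE 0.28). For FAS, TNFRSF10A and TNFRSF12A the sign of the difference turned negative with median log ratio scaling, and no direction is given for them.

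TNFRSF17 encodes BCMA, a survival receptor of plasma cells, and was below the filter. TNFRSF17 was at 0, 0.163 and 0.146 TPM in NRP2-high cells, against 1.49, 0.766 and 0.962 TPM in NRP2-low cells, from 0, 1 and 1 reads against 13, 5 and 6 reads. The groups did not overlap here either, as for 10.4% of all genes without a filter. In the fit without a filter the log2 fold change was -0.90 (SE 0.16, unadjusted p = 0.00128, limma adjusted p = 0.159), so it did not pass the threshold. The summed TPM of the 21 receptors was 622 ± 44.1 in NRP2-high cells and 603 ± 48.2 in NRP2-low cells (SD, n = 3 each).

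Several members differed more between libraries of a group than between the groups, in a pattern described after the values were seen. For 10 of the 20 tested members S40 was the lowest NRP2-high library and S37 the lowest NRP2-low library, against 37.5% of all tested genes. With mitochondrial genes removed and the rest rescaled this held for 8 of the 20, against 26.5% of genes. EDA in S40 was 0.513 times the mean of S38 and S39, and in S37 0.423 times the mean of S35 and S36. The same ratios were 0.555 and 0.567 for TNFRSF1A, 0.562 and 0.555 for TNFRSF11A and 0.664 and 0.535 for TNFRSF21. TNFRSF12A ran the other way at 1.62 and 1.32. NRP2 itself was at 0.366 and 0.428. The labels give passages that differ but tie no library to one and pair no NRP2-high with any NRP2-low library, so no fit took this pattern into account, and the part of passage or of the mitochondrial share of S37 in this pattern was not tested.

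**Figure D4:**
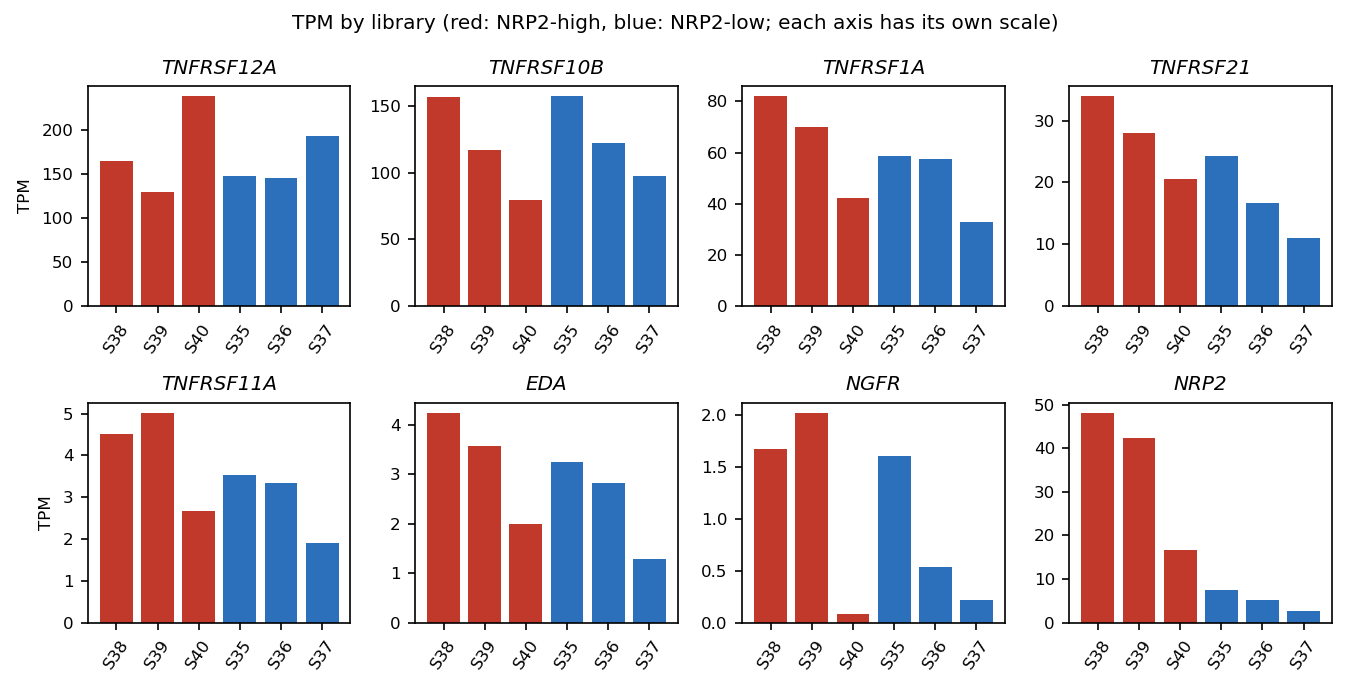
TPM of 7 members and of NRP2 in each library (bars from 0, each panel on its own scale), NRP2-high in red left of NRP2-low in blue. S40 and S37 are the lowest of their group in each panel but that of TNFRSF12A, where they are the highest at 238 and 194 TPM.

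Most genes that carry signals from these receptors did not pass the threshold. Of 24 adaptors and kinases of TNF receptor signalling 22 were tested, of which 1 fell, BIRC3, and 0 rose, where 0.486% of all tested genes fell and 0.348% rose. Their median log2 fold change was 0.10, as it was for all tested genes. BIRC3, the ubiquitin ligase cIAP2, which is both recruited to TNF receptors and induced by NF-kB, was at 16.0 ± 4.10 TPM in NRP2-high cells and 53.4 ± 3.18 TPM in NRP2-low cells (SD, n = 3 each; log2 fold change -1.71, SE 0.21, limma adjusted p = 0.00890). It kept the call in 5 of the 6 fits with a library left out and lost it without S36 (adjusted p = 0.0615). TNFAIP3 (A20), an inhibitor in the same pathway that is named because of its values, was at 3.90 ± 0.951 TPM in NRP2-high cells and 14.5 ± 7.68 TPM in NRP2-low cells and did not pass (log2 fold change -1.57, adjusted p = 0.106). None of 7 tested genes that process membrane TNF family proteins passed by limma. At an unadjusted p under 0.05 there were 2, RHBDF1 (named because of its values) and FURIN, against 7.0% of all tested genes. Of these 7, 6 had a log2 fold change above 0, as did 66.3% of all tested genes. The median of these 7 was 0.47, against 0.10 for all tested genes. ADAM10 was at 67.4 ± 8.71 TPM in NRP2-high cells and 49.2 ± 12.5 TPM in NRP2-low cells, and the protease gene FURIN at 57.2 ± 9.45 TPM in NRP2-high cells and 38.7 ± 10.6 TPM in NRP2-low cells (SD, n = 3 each).

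Of 12 tested NF-kB subunits and TNF-inducible genes 4 fell and 0 rose, against 0.486% and 0.348% of all tested genes, and their median log2 fold change was -0.32, against 0.10. ICAM1 and TNFAIP2 reached 1 TPM in the NRP2-low libraries alone, and CCL20 in these and in 1 NRP2-high library, so ICAM1 and TNFAIP2 had to differ between the groups to be tested. The list was also chosen with earlier results known, so its count and median are descriptions. Those that fell were the adhesion molecule ICAM1 (-2.66), the chemokine CCL20 (-2.64), TNFAIP2 (-1.69) and the NF-kB inhibitor NFKBIA (-1.60), while TNFAIP6, also TNF-inducible and named because of its values, was at 60.0 ± 28.3 TPM in NRP2-high cells and 27.5 ± 8.74 TPM in NRP2-low cells (log2 fold change 1.02, limma adjusted p = 0.561). CCL20 passed in all 6 fits with a library left out, ICAM1 in all but that without S36 (adjusted p = 0.0699), NFKBIA in all but that without S39 (0.0582), and TNFAIP2 in 0 (adjusted p up to 0.140). These fits kept the tested genes fixed, so they cannot check what the filter did for ICAM1 and TNFAIP2. The fit of these genes with no filter is not reported here. None of the 3 genes of the related RELT family passed by limma, and 0 had an unadjusted p under 0.05. RELL1 was at 27.7 ± 6.28 TPM in NRP2-high cells and 28.3 ± 6.86 TPM in NRP2-low cells, and RELL2 at 11.0 ± 3.21 TPM in NRP2-high cells and 8.23 ± 0.869 TPM in NRP2-low cells (SD, n = 3 each).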

How the data were processed

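RNA sequencing libraries of 6 samples were analysed from 1 table. The authors deposited TPM values, that is, reads per base of gene length, brought to 1 common total. The submitters' processing notes list hg38 (GRCh38.p12) as genome build, and featureCounts 1.5.2 and DESeq2 1.20.0 as tools. Not given in the sources used here are the aligner, the library kit and the use of strand. The deposited gene lengths are in bases. TPM times length came in whole multiples of its smallest value (tolerance 0.001) for 100% of non-zero values, which gave reads per gene.

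Columns name the group and an S number found in no label, so libraries have no replicate number of the labels. Genes reaching 1 TPM in 3 or more of the 6 libraries were tested on log2(TPM + 1) with limma 3.58.1 in R 4.3.3 (trend, two-sided, Benjamini-Hochberg over all tested genes, threshold 0.05). The script was tested on simulated data. Alternatives were a pseudocount of 0.1, no filter, median log ratio scaling, removal of mitochondrial genes, no trend, voom on the reads, and each library left out with the tested genes held fixed. Every tested member is named, as are those at 0.5 TPM or more in a library. From each other list up to 4 called genes, or otherwise the 2 with the highest mean TPM, are named, and further names are said to be chosen for their values. Some genes of the marker lists are not reported here. Members and lists were chosen with earlier results of these data known. Promoters are from RefSeq (GRCh38.p14), and exon overlaps and positions were read from GENCODE release 29 (GRCh38). Python 3.11.15, pandas 2.3.3, numpy 2.4.6 and matplotlib 3.10.9 were used.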

Additional observations from a re-analysis of the deposited data

How the results depend on the processing

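No paired analysis was possible because the column names carry none of the replicate numbers of the labels, and no label pairs the libraries. The 2 calls, TNF and TNFRSF11B, stayed with a pseudocount of 0.1, after median log ratio scaling, without mitochondrial genes, without a trend and by voom. Without a filter the count was 1, and with a library left out 1 to 2. Over all genes 127 passed, 74 without a filter, 200 by voom and 43 to 97 with a library left out. No member that had missed the threshold passed it in any alternative. Signs of uncalled members turned in 17 of the values, for 6 members. After median log ratio scaling, FAS was at -0.071, TNFRSF10A at -0.069 and TNFRSF12A at -0.026. Without mitochondrial genes FAS was at -0.041 and TNFRSF10A at -0.038, and by voom FAS was at -0.037, TNFRSF10A at -0.051 and NGFR at -0.049. Leaving out a library gave log2 fold changes from -0.0045 to 0.50 for CD70, -0.041 to 0.21 for FAS, -0.083 to 0.15 for TNFRSF10A, -0.35 to 0.13 for TNFRSF10B and -0.14 to 0.30 for TNFRSF12A. The cause was not tested. The 16 members below the filter were fitted only without it, where none passed by limma. Of these 16, 3 (LTA, TNFSF14 and TNFRSF17) had an unadjusted p under 0.05, against 6.5% of all genes in that fit. All 3 are low in counts: LTA had 6 reads (high) and 1 (low), TNFSF14 1 and 12, and TNFRSF17 2 and 24.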
